A study of Mus musculus with 6 samples.

Results

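The genes described here are 10 genes that mark or act in cortical thymic epithelial cells (cTECs): *Psmb11*, *Prss16*, *Ccl25*, *Cxcl12*, *Dll4*, *Ctsl*, *Ly75*, *Tbata*, *Kitl* and *Il7*. They were taken by name from a table of 22513 gene entries, each name matched 1 entry, and all 10 were among the 15894 entries that entered the tests, those averaging 0.1 FPKM or more. RNA had been sequenced from thymic stroma in fetal thymus organ culture, made from C57BL/6 embryos that were wild type (WT) or carried the Jmjd6-/- genotype, a constitutive loss of a nuclear oxygenase that modifies splicing proteins. Lobes of both genotypes had been cultured for 4 days with 2-deoxyguanosine (2-DG), which depletes haematopoietic cells, before a further 4 days with or without the receptor activator of NF-κB ligand (RANKL), which turns on Aire in medullary epithelial cells (mTECs). There was 1 unstimulated library of each genotype and there were 2 RANKL libraries of each. The study calls the latter samples while its series record speaks of technical duplicates, so p-values measure only the spread between these libraries, which may be technical. The lobes were not sorted, and FPKM is a share of the RNA of all their cells. A lower value of a cTEC gene can stand for fewer cTECs or for less of its RNA per cTEC. It can also stand for more RNA from other cells, and these readings cannot be told apart.

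The cortex of the thymus is where immature thymocytes settle, commit to the T lineage and are positively selected. cTECs serve each step. They secrete the chemokines *Ccl25* and *Cxcl12* that draw and hold precursors, present the Notch ligand *Dll4* that commits them, supply the growth factors *Il7* and *Kitl* that keep them alive and dividing, and process self-peptides with proteases that other cells lack or use little, among them the proteasome subunit encoded by *Psmb11*. mTECs share an ancestor with cTECs, grow under RANKL and display tissue antigens for tolerance.

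The labels were first checked on marker genes. *Jmjd6* was at 26.3 FPKM in WT stroma left unstimulated against 25.9 and 32.5 after RANKL, and at 1.32 in Jmjd6-/- stroma left unstimulated against 1.96 and 1.78 after RANKL, and Jmjd6-/- libraries with RANKL were lower than WT (log2 -3.89 ± 0.17 SE, adjusted p = 0.0138, limma with Benjamini-Hochberg adjustment over all tested entries), while the RANKL difference did not pass (log2 0.31 ± 0.15 SE, adjusted p = 0.218). *Aire* was at 0.142 FPKM in WT stroma left unstimulated against 78.0 and 79.7 after RANKL, and at 0.473 in Jmjd6-/- stroma left unstimulated against 75.1 and 67.1 after RANKL and rose with RANKL (log2 7.65 ± 0.29 SE, adjusted p = 3.96e-05). The genotype difference of *Aire* did not pass (log2 -0.15 ± 0.13 SE, adjusted p = 0.610). Of 10 thymocyte and T cell markers, 5 had a mean under 0.1 FPKM, *Rag2* was at 0 in all 6 libraries and *Cd3e* in 5 of 6, while *Thy1* (mean 6.26 FPKM), *Ptprc*, the pan-leukocyte antigen CD45 (4.49), and *Lck* (1.02) were the highest of the list. Macrophage markers were present in every library, with *Lyz2* at 285 to 346 FPKM, *Cd68* at 25.2 to 40.4 FPKM and *Adgre1* at 12.7 to 34.7 FPKM. *Foxn1*, the transcription factor that thymic epithelium depends on, was at 89.5 FPKM in WT stroma left unstimulated against 80.8 and 103 after RANKL, and at 94.0 in Jmjd6-/- stroma left unstimulated against 117 and 101 after RANKL, with no change past the threshold under RANKL (log2 0.12 ± 0.13 SE, adjusted p = 0.571) or between genotypes (log2 0.25 ± 0.16 SE, adjusted p = 0.490). The WT RANKL libraries stood further apart than the Jmjd6-/- ones: over the 12587 entries that averaged 1 FPKM or more, the median absolute log2 difference between replicates was 0.28 in WT and 0.08 in Jmjd6-/- stroma.

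The 10 genes were among the most abundant transcripts of the cultures. FPKM, the unit of these levels, is the number of fragments corrected for transcript length and library depth, and can be compared between genes. *Ctsl* ranked first of all 22513 entries in both unstimulated libraries and between 2 and 3 in the RANKL libraries. *Prss16* ranked between 4 and 10, *Ccl25* between 8 and 22 and *Tbata* between 10 and 16. *Cxcl12* ranked between 79 and 125, and *Psmb11* and *Il7* between 154 and 291. *Ly75*, *Dll4* and *Kitl* were the least abundant, and *Kitl*, the lowest of the 10 in every library, still ranked between 988 and 2708. Together the 10 genes held 3.37% of all FPKM in the WT culture without RANKL and 3.13% in the Jmjd6-/- one. With RANKL their share was 2.30% and 2.34% for WT and 2.56% and 2.49% for Jmjd6-/-, so each RANKL library lay below both unstimulated ones.

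The order of the levels was *Ctsl* above *Prss16* in all 6 libraries, and both above the rest. *Ccl25* and *Tbata* followed but changed places between libraries: *Ccl25* was the higher in both unstimulated libraries and in 1 Jmjd6-/- RANKL library, and *Tbata* in the other 3, so this pair was not separated beyond its spread. *Cxcl12* took the fifth place in every library. *Psmb11* and *Il7* also changed places, as did *Ly75* and *Dll4* in 1 WT RANKL library, where *Dll4* was the higher. The plot of the levels by library shows these steps, which span about the same distance in each condition.

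**Figure D1:**
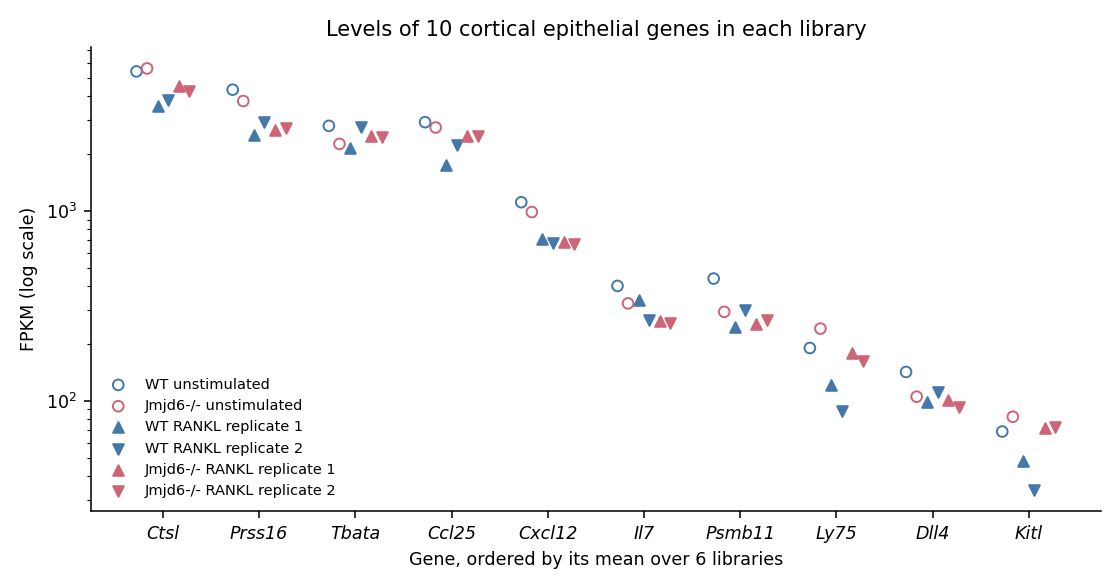
Levels of the 10 genes in FPKM (log scale), with genes ordered by their mean; open circles are the unstimulated libraries, filled triangles the RANKL libraries, blue WT and red Jmjd6-/-. *Ctsl* lay between 3557 and 5619 FPKM and *Kitl* between 33.8 and 82.3 FPKM, and the open circles tend to sit above the filled triangles of the same colour.

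Several cTEC genes are known targets of Foxn1, whose DNA-binding domain reads the short core GACGC, so the sequence before the start of each gene was searched for these 5 letters on both strands (GACGC or GCGTC). The RefSeq promoter table (build GRCm38.p6) held 9 windows for 8 of the 10 genes, all but *Prss16* and *Il7*. The 250 bases before the start held the core in 4 of the 9 windows, those of *Psmb11*, *Ccl25*, *Cxcl12* and *Kitl*, against 22.6% of the 32851 windows in the table. *Psmb11* had it at 239 and 62 bases before the start, *Cxcl12* at 62, *Ccl25* at 56 in 1 of its 2 windows and *Kitl* at 183. No match was found in the windows of *Ly75*, *Dll4*, *Tbata* and *Ctsl*. The window of *Ctsl*, on the minus strand, began at 64370521, while the measured locus ended at 64370306. The bases between them were not searched, so the lack of a match does not cover them. A match to 5 letters is a description of the sequence and not a site. The 100 bases before the start are printed for the 3 genes whose match lay nearest to it, with the core in capitals, since the places of these matches are close to each other.
Psmb11 (chr14:54625210-54625309, + strand): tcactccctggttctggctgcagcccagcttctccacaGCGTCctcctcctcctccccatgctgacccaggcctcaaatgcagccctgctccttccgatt
Cxcl12 (chr6:117168435-117168534, + strand): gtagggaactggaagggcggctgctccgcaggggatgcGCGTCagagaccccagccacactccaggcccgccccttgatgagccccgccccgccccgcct
Ccl25 (chr8:4325110-4325209, + strand): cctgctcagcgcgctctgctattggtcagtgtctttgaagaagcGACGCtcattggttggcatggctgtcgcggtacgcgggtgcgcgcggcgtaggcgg
The RANKL changes of these 3 genes, given in the next paragraphs, were not tested against each other.

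The first comparison asked how the cTEC genes answered RANKL, the signal that expands mTECs. All 10 were lower with RANKL over both genotypes, as were 52.4% of all tested entries, and *Tbata* alone turned its sign in an alternative, without WT RANKL replicate 1. They had a median log2 change of -0.45, against -0.02 over all tested entries and 0.00 over the 1379 entries at least as abundant as the lowest of the 10. *Cxcl12*, *Ly75* and *Prss16* passed the test and fell, 3 of 10 against 4.11% of all tested entries that fell, and none rose, against 10.5% of entries that rose. In 5 of 10, *Prss16*, *Ccl25*, *Cxcl12*, *Ctsl* and *Ly75*, all 4 RANKL libraries lay below both unstimulated ones, which 18.5% of entries did, and in none did they all lie above, as in 18.9% of entries. The falls were moderate, and no member met the 3-fold range between its highest and lowest library that the study used as its first selection, a range met by 14.3% of all entries. The ratio of the highest to the lowest library, with 0.1 added, was between 1.31 for *Tbata* and 2.71 for *Ly75*. The differences are given with genotype as a term in the model (4 RANKL against 2 unstimulated libraries).

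Among the genes of peptide processing and uptake, *Prss16* (chr13:22002176-22009741, mm10), a serine protease of cTEC endosomes that shapes the peptides shown to CD4 T cells, was at 4345 FPKM in WT stroma left unstimulated against 2506 and 2925 after RANKL, and at 3785 in Jmjd6-/- stroma left unstimulated against 2671 and 2713 after RANKL. All RANKL libraries lay below both unstimulated ones, and the fall passed the test (log2 -0.59 ± 0.14 SE, adjusted p = 0.0352). *Ly75* (chr2:60293760-60383231), the endocytic receptor DEC-205 that cTECs and dendritic cells carry on their surface, was at 189 FPKM in WT stroma left unstimulated against 120.5 and 88.4 after RANKL, and at 239.7 in Jmjd6-/- stroma left unstimulated against 179 and 162 after RANKL. It fell by the largest amount of the 10 (log2 -0.69 ± 0.15 SE, adjusted p = 0.0287), and the WT RANKL libraries were the lowest. *Ctsl* (chr13:64363214-64370306), the lysosomal protease that cuts the invariant chain of MHC class II in cTECs, was at 5422 FPKM in WT stroma left unstimulated against 3557 and 3837 after RANKL, and at 5619 in Jmjd6-/- stroma left unstimulated against 4531 and 4285 after RANKL. Its groups did not overlap either, yet the difference missed the threshold (log2 -0.45 ± 0.14 SE, adjusted p = 0.0847). *Psmb11* (chr14:54625310-54629556), the catalytic subunit β5t of the thymoproteasome that makes the peptides for positive selection of CD8 T cells, was at 439.8 FPKM in WT stroma left unstimulated against 243 and 299.6 after RANKL, and at 294 in Jmjd6-/- stroma left unstimulated against 254 and 266 after RANKL. Unstimulated WT stood above the other 5 libraries, unstimulated Jmjd6-/- stroma lay within the range of the WT RANKL libraries, and the test was not passed (log2 -0.44 ± 0.15 SE, adjusted p = 0.0981).

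The chemokines differed from each other in how closely their libraries agreed. *Cxcl12* (chr6:117168535-117181368), the ligand of Cxcr4 on early precursors, was at 1110.1 FPKM in WT stroma left unstimulated against 709 and 674 after RANKL, and at 985 in Jmjd6-/- stroma left unstimulated against 689 and 672 after RANKL. The RANKL libraries had coefficients of variation of 3.58% in WT and 1.78% in Jmjd6-/- stroma and all lay below the unstimulated ones, and *Cxcl12* had the smallest adjusted p of the 10 (log2 -0.61 ± 0.10 SE, adjusted p = 0.00868). *Ccl25* (chr8:4325210-4360020), the ligand of Ccr9, was at 2929 FPKM in WT stroma left unstimulated against 1748 and 2230.2 after RANKL, and at 2746 in Jmjd6-/- stroma left unstimulated against 2463 and 2469 after RANKL. Its 4 RANKL libraries were also the lowest, but the Jmjd6-/- ones lay nearer to the unstimulated values and the difference did not pass (log2 -0.36 ± 0.16 SE, adjusted p = 0.194).

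The Notch ligand and the growth factors did not pass the test. *Dll4* (chr2:119321199-119335666) was at 142 FPKM in WT stroma left unstimulated against 98.1 and 111 after RANKL, and at 105 in Jmjd6-/- stroma left unstimulated against 100.4 and 92.3 after RANKL, with unstimulated WT above the rest and the other 5 libraries close together (log2 -0.28 ± 0.11 SE, adjusted p = 0.135). The span given is that of a shared locus and not of *Dll4* alone, since the promoter window of *Dll4* ends inside it, at 119325783. The same span is given for *Gm14207*, which lies on the opposite strand and stood at 40.9 to 72.9 FPKM. The library kit named in the study does not mark the strand, so reads from the overlap cannot be assigned to 1 of these genes and the values of *Dll4* carry that uncertainty. *Il7* (chr3:7572077-7613427), the main survival factor of early thymocytes, was at 402 FPKM in WT stroma left unstimulated against 337 and 265 after RANKL, and at 325 in Jmjd6-/- stroma left unstimulated against 261 and 257 after RANKL, and 1 WT RANKL library lay above unstimulated Jmjd6-/- stroma (log2 -0.38 ± 0.12 SE, adjusted p = 0.0781). *Kitl* (chr10:100015824-100100412), stem cell factor, the ligand of Kit on the earliest precursors, was at 68.8 FPKM in WT stroma left unstimulated against 48.0 and 33.8 after RANKL, and at 82.3 in Jmjd6-/- stroma left unstimulated against 71.9 and 72.9 after RANKL. The WT RANKL libraries of *Kitl* were the lowest and the Jmjd6-/- ones lay above unstimulated WT (log2 -0.48 ± 0.18 SE, adjusted p = 0.132). *Tbata* (chr10:61171964-61188841), a gene of thymic stroma, brain and testis that has been tied to epithelial proliferation, was at 2802 FPKM in WT stroma left unstimulated against 2143 and 2755 after RANKL, and at 2250.4 in Jmjd6-/- stroma left unstimulated against 2464 and 2434 after RANKL. Its groups overlapped and its difference was the smallest of the 10 (log2 -0.04 ± 0.16 SE, adjusted p = 0.886).

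Within WT, both RANKL libraries lay below the unstimulated library in 10 of 10 genes, which 36% of entries did. Within Jmjd6-/- stroma this held for 9 of 10, all but *Tbata*, against 44.6% of entries. *Tbata* was thus the 1 gene of the 10 whose RANKL libraries all moved opposite ways in the genotypes, as 8.03% of entries did. The median log2 change of the 10 was -0.63 in WT and -0.26 in Jmjd6-/- stroma. With 2 libraries against 1, none of the 10 passed the adjusted threshold within WT (0.56% of entries fell and 6.05% rose) or within Jmjd6-/- stroma (0.346% fell and 3.75% rose). The call of 3 falls rested on the libraries entered, and none of the 10 passed when either Jmjd6-/- RANKL library was left out. With 1 library left out, the log2 change was -0.63 to -0.58 for *Cxcl12*, -0.75 to -0.56 for *Ly75* and -0.62 to -0.53 for *Prss16*.

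**Figure D2:**
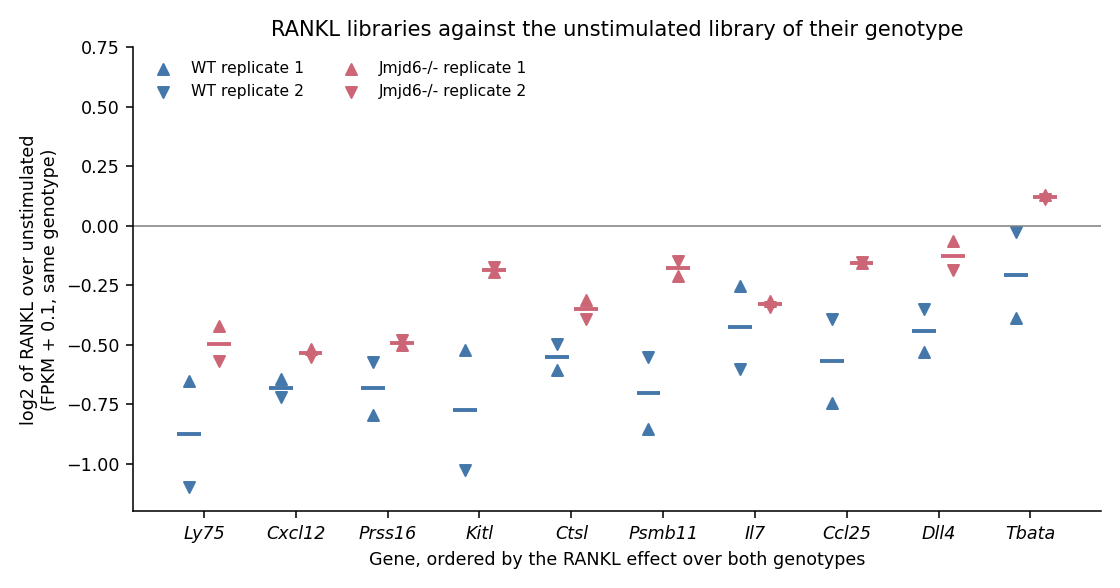
log2 of each RANKL library over the unstimulated library of its genotype, with 0.1 added to FPKM; triangles are libraries, horizontal bars the fitted value for each genotype, blue WT and red Jmjd6-/-. The WT bars lie between -0.88 for *Ly75* and -0.21 for *Tbata* and the Jmjd6-/- bars between -0.53 for *Cxcl12* and 0.12 for *Tbata*; the WT triangles of a gene are further apart than the Jmjd6-/- ones.

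Of 23 relatives of the 10 genes, which belong to the same families or share their roles, 10 rose with RANKL and 1 fell, with a median log2 change of 0.42. In the proteasome family, *Psmb8*, the interferon-inducible β5i subunit, was at 15.7 FPKM in WT stroma left unstimulated against 44.2 and 65.8 after RANKL, and at 5.30 in Jmjd6-/- stroma left unstimulated against 25.1 and 20.7 after RANKL and rose (log2 1.93 ± 0.18 SE, adjusted p = 0.00102). The other interferon-inducible subunits, *Psmb9* (log2 0.14 ± 0.18 SE, adjusted p = 0.644) and *Psmb10* (log2 0.47 ± 0.26 SE, adjusted p = 0.276), did not pass. The constitutive subunit *Psmb5* did not pass either (log2 0.19 ± 0.15 SE, adjusted p = 0.434). The ratio of *Psmb11* to *Psmb8* on the FPKM scale was 28.0 in WT stroma left unstimulated against 5.51 and 4.56 after RANKL, and 55.5 against 10.1 and 12.8 in Jmjd6-/- stroma. Since *Psmb8* itself rose, the lower ratio with RANKL is not a result about *Psmb11* alone. *Psmb11* was the most abundant of the β5 subunits in all 6 libraries, at 1.09 to 2.43 times the level of *Psmb5*.

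Among the cathepsins, *Ctss*, which cuts the invariant chain in dendritic cells and mTECs, was at 74.1 FPKM in WT stroma left unstimulated against 117 and 154 after RANKL, and at 69.2 in Jmjd6-/- stroma left unstimulated against 86.3 and 98.8 after RANKL and rose (log2 0.64 ± 0.15 SE, adjusted p = 0.0369). The ratio of *Ctsl* to *Ctss* in FPKM was 73.2 in WT stroma left unstimulated against 30.3 and 24.9 after RANKL, and 81.2 against 52.5 and 43.4 in Jmjd6-/- stroma. Since *Ctss* itself rose, the lower ratio with RANKL is not a result about *Ctsl* alone. The lysosomal proteases *Ctsh* (log2 0.89, adjusted p = 0.0163) and *Ctsz* (log2 1.11, adjusted p = 0.00593) rose as well. The cathepsins did not all rise. *Ctsb* (mean 214 FPKM, log2 -0.09 ± 0.11 SE, adjusted p = 0.629) and *Ctsd* (mean 421 FPKM, log2 0.21 ± 0.14 SE, adjusted p = 0.345) did not pass.

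Of the chemokines outside the cortical set, *Cxcl9*, *Ccl19* and *Cxcl10* rose the most among the relatives, with log2 changes of 4.59, 2.64 and 2.57 and adjusted p of 0.000224, 0.0120 and 0.000475. *Cxcl12* stood 19.2 and 20.9 times above *Cxcl10* in the unstimulated libraries and between 1.498 and 3.29 times in the RANKL libraries. Among the Notch ligands, *Jag1* fell (log2 -0.46 ± 0.09 SE, adjusted p = 0.0225) and *Dll3*, listed at 0 in both unstimulated libraries and at 0.245 to 0.386 FPKM in the RANKL libraries, rose (adjusted p = 0.00596). *Dll4* was 22.1 to 31.2 times above *Dll1* and 1.59 to 2.96 times above *Jag2* in every library, so it was the most abundant of the Notch ligands listed in all 6.

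Receptors of these ligands, known from thymocytes, spanned a wide range of levels. The cultures had been depleted of haematopoietic cells, and which cells held this RNA was not tested. *Ccr9*, the receptor of Ccl25, was at 0.0565 to 0.166 FPKM, *Kit* at 2.03 to 4.86 FPKM, *Cxcr4*, the receptor of Cxcl12, at 6.26 to 15.4 FPKM and *Notch1* at 13.8 to 20.5 FPKM. Of 8 such receptors, 2 rose and 1 fell with RANKL. *Il2rg*, the common γ-chain of the interleukin 7 receptor, was at 3.56 FPKM in WT stroma left unstimulated against 39.6 and 33.8 after RANKL, and at 1.83 in Jmjd6-/- stroma left unstimulated against 26.6 and 23.1 after RANKL and rose (log2 3.51 ± 0.13 SE, adjusted p = 3.99e-05). *Il7r* rose from 0.352 and 0.433 FPKM to 1.01 to 2.19 FPKM (log2 1.70 ± 0.25 SE, adjusted p = 0.00602). *Notch3* fell (log2 -0.58 ± 0.10 SE, adjusted p = 0.0106), while *Notch1*, the receptor that Dll4 engages on thymocytes, did not pass (log2 -0.07 ± 0.09 SE, adjusted p = 0.621).

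Of 15 other genes of cortical and general thymic epithelium, 3 fell and none rose, with a median log2 change of -0.17. These were *Enpep*, the aminopeptidase Ly51 used as a surface marker of cTECs (log2 -1.05 ± 0.07 SE, adjusted p = 0.000322), *Slc46a2*, a transporter of cTECs (log2 -0.47 ± 0.10 SE, adjusted p = 0.0213), and *Cd83*, a membrane protein that stabilises MHC class II on cTECs (log2 -0.42 ± 0.10 SE, adjusted p = 0.0338). The keratins *Krt8* (log2 -0.11, adjusted p = 0.691) and *Krt18* (log2 -0.29, adjusted p = 0.367) did not pass. *Epcam*, a pan-epithelial adhesion molecule, did not pass either (log2 0.27 ± 0.08 SE, adjusted p = 0.0583).

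Markers of other cells moved with RANKL beside the cTEC genes. Of 12 mTEC markers 9 rose, with a median log2 change of 2.18, led by *Aire* and followed by *Fezf2* (3.57), *Cd80* (3.45) and *Spib* (2.88). Their summed level was 2904 and 3463 FPKM unstimulated and 3048 to 4271 FPKM with RANKL. Most of this sum was *Krt5* and *H2-Aa*, at 1548 and 1280 FPKM in unstimulated WT stroma, so it says little about the other markers. Of 8 endothelial markers 4 fell (median -0.90), with a summed level of 32.3 and 12.6 FPKM unstimulated and 6.55 to 20.2 FPKM with RANKL. Of 9 macrophage and dendritic cell markers 2 rose and 2 fell (median 0.65, summed level 356 to 431 FPKM over the 6 libraries, most of it *Lyz2*). Of 11 mesenchymal markers 1 rose (median -0.01, summed level 320 to 724 FPKM). Of the 10 thymocyte and T cell markers, 5 could be tested, of which 2 rose and 1 fell, with a summed level of 10.4 to 17.4 FPKM. The part of these cells in the values of the cTEC genes was not tested.

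**Figure D3:**
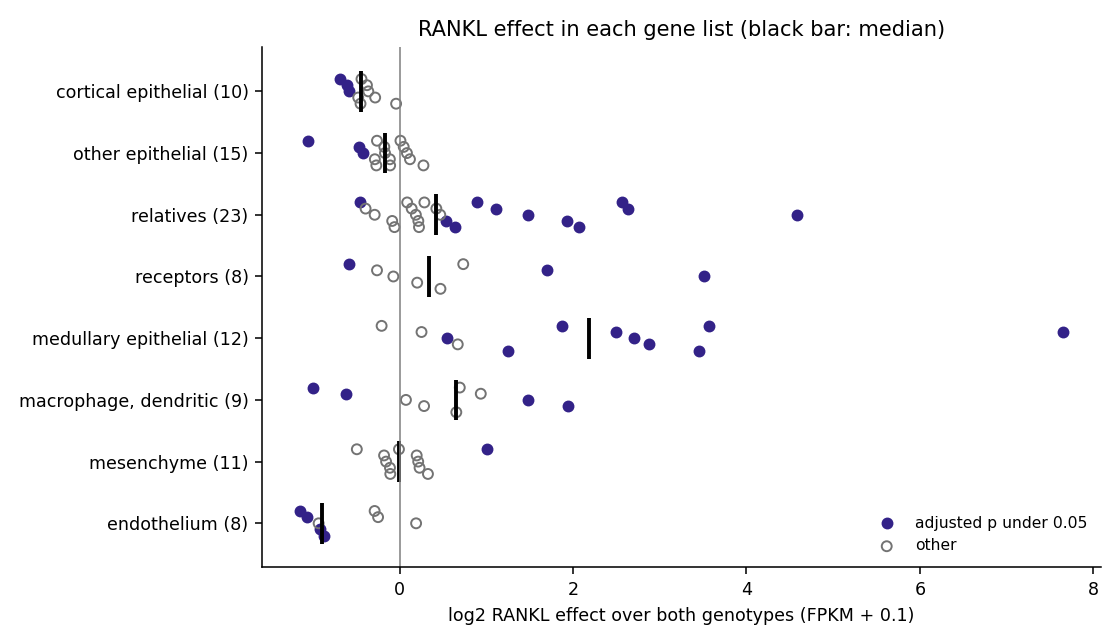
log2 RANKL effect over both genotypes for each gene of 8 lists, 1 point per gene; filled points have an adjusted p under 0.05, open points do not, and black bars are list medians. The cortical epithelial genes lie between -0.69 and -0.04 with a median of -0.45, and the medullary epithelial markers between -0.21 and 7.65 with a median of 2.18.

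The second comparison set Jmjd6-/- against WT stroma, both with RANKL (2 against 2 libraries). *Ly75* and *Kitl* were the genes of the 10 that differed most, both higher in Jmjd6-/- stroma, but none of the 10 passed the adjusted threshold in the fit of all 6 libraries, where 0.516% of all tested entries were higher and 1.82% lower. *Kitl* stood at 40.9 ± 10.03 FPKM in WT and 72.4 ± 0.691 FPKM in Jmjd6-/- stroma (mean ± SD, n = 2 each), a ratio of 1.77 (log2 0.85 ± 0.18 SE, adjusted p = 0.0810). *Ly75* stood at 104 ± 22.7 FPKM in WT and 170.3 ± 12.04 FPKM in Jmjd6-/- stroma, a ratio of 1.63 (log2 0.72 ± 0.18 SE, adjusted p = 0.104). The 95% intervals, which are not adjusted for the number of entries, were 0.39 to 1.30 for *Kitl* and 0.28 to 1.16 for *Ly75* on the log2 scale.

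The size of these 2 differences depended on the WT libraries. Without WT RANKL replicate 1 the log2 difference was 1.10 for *Kitl* and 0.94 for *Ly75*. Without WT RANKL replicate 2 it was 0.59 for *Kitl* and 0.50 for *Ly75*. With 1 WT RANKL library left, the spread in these fits came from the Jmjd6-/- pair alone, so their p-values are not given. Neither gene passed when either Jmjd6-/- library was left out. Both passed when the trend with GC content and transcript length was taken out of each library, an alternative added after the data were seen (*Kitl* log2 0.69, adjusted p = 0.0123; *Ly75* log2 0.58, adjusted p = 0.0225), and with the replicate number as a block, which did not pair the samples (adjusted p = 0.000786 and 0.00427).

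The other 8 genes showed smaller differences. Both Jmjd6-/- RANKL libraries lay above both WT RANKL libraries in 4 of 10 genes, *Ccl25*, *Ctsl*, *Ly75* and *Kitl*, against 24.5% of entries, and below them in 1, *Il7*, against 26.2%. *Ccl25* was higher by 0.32 on the log2 scale (95% interval -0.17 to 0.81, adjusted p = 0.467) and *Ctsl* by 0.25 (-0.23 to 0.73, adjusted p = 0.562). *Il7* differed by -0.21 (-0.59 to 0.18, adjusted p = 0.554). *Dll4* (-0.12), *Psmb11* (-0.06), *Cxcl12* (-0.02), *Prss16* (-0.01) and *Tbata* (0.01) were closer to 0, with adjusted p of 0.67 to 0.99. Their intervals, of which the widest were -0.48 to 0.50 for *Tbata* and -0.47 to 0.45 for *Prss16*, do not show that the genotypes were alike.

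Markers of other cells differed between the genotypes with RANKL. All 11 mesenchymal markers were lower in Jmjd6-/- stroma (median log2 -0.80), 2 past the threshold, the collagens *Col3a1* (log2 -0.999 ± 0.11 SE, adjusted p = 0.0280) and *Col1a2* (log2 -0.80 ± 0.11 SE, adjusted p = 0.0350), and their summed level was 652 and 724 FPKM in WT and 405 and 419 FPKM in Jmjd6-/- libraries. All 8 endothelial markers were lower (median -1.03), 3 past the threshold, *Tie1* (-1.95), *Pecam1* (-1.74) and *Cdh5* (-1.60), at summed levels of 16.6 and 20.2 FPKM in WT and 6.55 and 7.15 FPKM in Jmjd6-/- libraries. Both sums were also lower in the Jmjd6-/- library without RANKL (1 library per genotype, no test). Mesenchymal markers summed to 675 FPKM in WT and 320 FPKM in Jmjd6-/- stroma, and endothelial markers to 32.3 and 12.6 FPKM. *Cxcl12* and *Kitl* are also made by mesenchyme and endothelium in many tissues, and the part of these cells in their values was not tested. Of the 12 mTEC markers, the 9 macrophage and dendritic cell markers, the 15 other epithelial genes and the 8 receptors, none passed. Of the relatives, *Ccl19*, a chemokine that guides mature thymocytes to the medulla, passed (log2 -2.71 ± 0.28 SE, adjusted p = 0.0280), at 2.94 FPKM in WT stroma left unstimulated against 32.2 and 47.3 after RANKL, and at 1.89 in Jmjd6-/- stroma left unstimulated against 7.33 and 4.73 after RANKL.

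**Figure D4:**
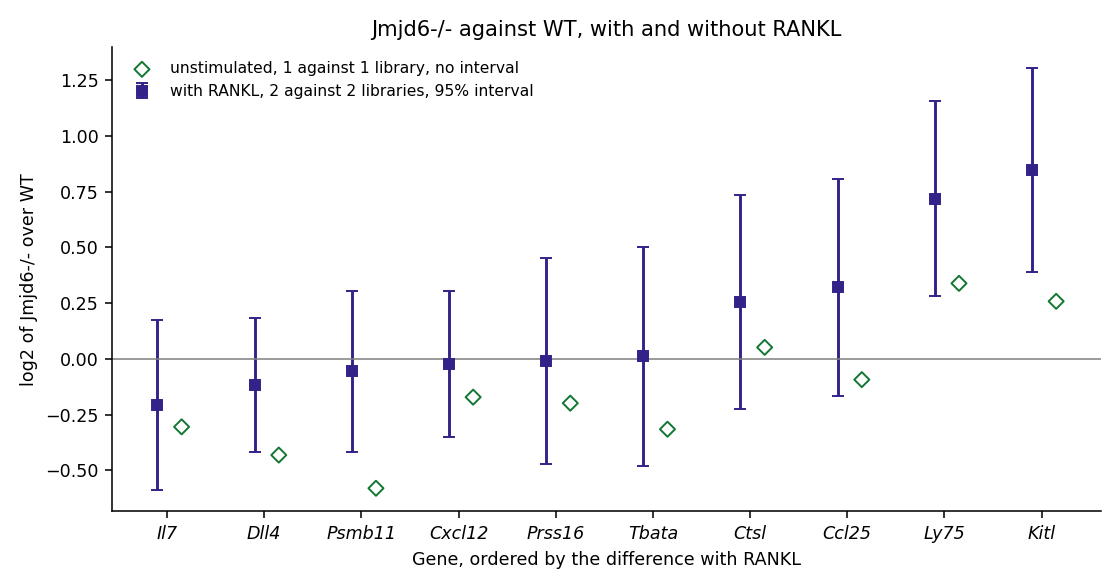
log2 of Jmjd6-/- over WT for each gene; squares are the RANKL libraries (2 against 2) with the 95% interval of the limma fit, open diamonds the unstimulated libraries (1 against 1, no interval). *Kitl* at 0.85 and *Ly75* at 0.72 are the farthest from 0 with RANKL, and *Psmb11* at -0.58 is the farthest without it.

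Unstimulated Jmjd6-/- and WT stroma had 1 library each, and their values are set side by side without a test. The ratio of Jmjd6-/- to WT was between 0.668 for *Psmb11* and 1.27 for *Ly75*. None of the 10 genes differed by more than 2-fold, as 3.45% of entries did downwards and 2.99% upwards. Of the 10, 7 were lower in Jmjd6-/- stroma, against 49.1% of entries. *Ly75*, *Kitl* (ratio 1.20) and *Ctsl* (1.04) were the 3 that were higher. *Dll4* had a ratio of 0.741, *Tbata* of 0.803 and *Il7* of 0.809. In 7 of 10 genes this difference was smaller on the log2 scale than the larger of the gaps between RANKL replicates of 1 genotype.

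The third comparison was the difference between the RANKL responses of the genotypes. The change was smaller or more positive in Jmjd6-/- stroma in all 10 genes, by a median of 0.32 on the log2 scale, against 54.4% of all tested entries on that side and 66.1% of the 1379 entries at least as abundant as *Kitl*. The difference was largest for *Kitl* (0.59 ± 0.32 SE) and *Psmb11* (0.52 ± 0.25 SE), and smallest for *Il7* (0.10 ± 0.26 SE). None of the 10 passed the test of this difference (limma, adjusted p = 1.00 for each), and none was under an unadjusted 0.05. Over all entries 0 passed and 664 were under an unadjusted 0.05, so 0% of entries were called in either direction. Each genotype's change rests on 1 unstimulated library, which enters the values of all 10 genes at once. The difference of *Il7* turned its sign in 3 alternatives. For *Aire* the difference was -1.39 (0.22 SE, adjusted p = 0.712), for *Jmjd6* 0.33 and for *Foxn1* 0.18, both at an adjusted p of 1.00. That of *Aire* rests on unstimulated values near the floor, 0.142 FPKM in WT and 0.473 in Jmjd6-/- stroma. With RANKL its genotypes differed by log2 -0.15.

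The spread between replicates was not the same in the genotypes. The coefficient of variation of the 2 RANKL libraries was 3.58% to 24.5% in WT and 0.191% to 7.07% in Jmjd6-/- stroma, and it was higher in WT for all 10 genes. The counting error estimated from depth was at most 1.86%, for *Kitl*. In WT, replicate 2 was above replicate 1 for *Tbata*, *Ccl25*, *Psmb11*, *Prss16*, *Dll4* and *Ctsl* and below it for *Cxcl12*, *Il7*, *Ly75* and *Kitl*, with log2 differences from -0.50 to 0.36. These differences went with the GC content of the transcripts, which lay between 39.0% for *Il7* and 55.9% for *Dll4*: over the 10 genes Pearson's r was 0.74 and Spearman's rho 0.64 in WT, and r was -0.02 in Jmjd6-/- stroma, as a description of genes that share the same libraries. Over all entries with a mean of at least 1 FPKM and a known transcript, the WT replicates differed by a median log2 of -0.41 in the tenth with the lowest GC content and 0.28 in the tenth with the highest, and the Jmjd6-/- replicates by -0.02 and 0.01. *Kitl* and *Ly75*, the genes with the largest genotype differences, were also those whose WT replicates lay furthest apart relative to their mean.

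**Figure D5:**
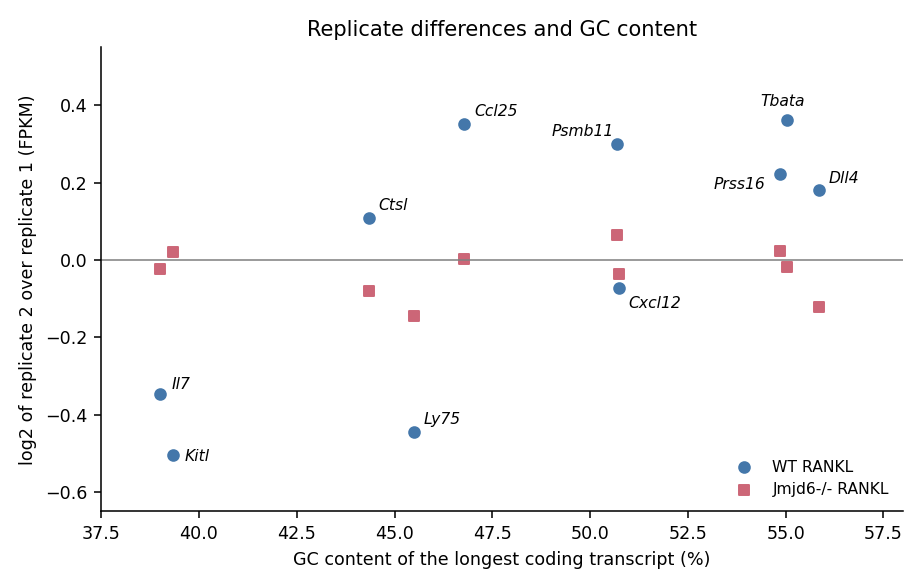
log2 of replicate 2 over replicate 1 of the RANKL libraries against the GC content of the longest coding transcript, 1 point per gene and genotype (blue WT, labelled; red Jmjd6-/-). The WT points lie between -0.50 for *Kitl* and 0.36 for *Tbata*, and the Jmjd6-/- points between -0.14 and 0.06.

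Across the 6 libraries the 10 genes varied together in part. Of the 45 pairs, 42 had a Pearson's r above 0 on the log2 scale and 29 above 0.5, with a median of 0.64 and a range from -0.26 to 0.96. These are descriptions over 6 libraries that share the RANKL groups, with no test. The share of such pairs among all entries was not computed, so the counts do not set these genes apart from others. The entry most like *Ccl25* among the 12587 searched was *Sun2* (r = 0.998), that most like *Psmb11* was *Card10* (r = 0.985), and that most like *Prss16* was *Arl4c* (r = 0.997). *Cxcl12* was closest to *Fam98a* (r = 0.999), *Ctsl* to *2010111I01Rik* (r = 0.998) and *Dll4* to *Prss23* (r = 0.990). *Ly75* was closest to *Sipa1l1* (r = 0.999), *Kitl* to *Zfp119b* (r = 0.999), *Il7* to *Taf1b* (r = 0.993) and *Tbata* to *Psmd9* (r = 0.991). The next in line were *Gch1*, *0610009D07Rik*, *Etfa*, *Lime1*, *Ykt6*, *Zfyve27*, *Ppp2r3a*, *0610009B22Rik*, *Prune* and *2210404J11Rik*, for the same genes in the same order, with r of 0.975 to 0.997. Each r was picked as the highest or next highest of 12587 over only 6 libraries. How high such picks are for other genes was not computed, so the size of r is no evidence of a link.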

How the data were processed

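Thymic stroma in fetal thymus organ culture was profiled in 6 poly-A RNA libraries. The authors deposited FPKM for each gene: paired-end reads had been mapped to mm10 with TopHat2 2.0.10, and Cufflinks 2.1.1 had computed FPKM with correction for multiply mapped reads and a strand-specific setting, although the kit named does not mark the strand. Groups were taken from titles and the stimulation field, since the treatment field gives RANKL for every sample. Column totals ran from 501418 to 564985 FPKM. Depth, inferred from the size of 1 fragment among the lowest values, was about 15500000 to 32400000 fragments, and limits from it cover counting error only.

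The 10 genes and all other gene lists were chosen with earlier results of these data known. Values were tested as log2(FPKM + 0.1), which understates changes of low genes, for the 15894 entries averaging 0.1 FPKM or more, by limma 3.58.1 (R 4.3.3) allowing the variance to depend on the mean, and p-values were adjusted by Benjamini-Hochberg over all of them, with a threshold of 0.05. RANKL was tested with genotype as a term. Jmjd6-/- against WT under RANKL, the RANKL effect within each genotype and the difference between the responses came from a model with 4 group means. An exact permutation test of 2 against 2 libraries cannot give a p below 0.333 (two-sided) and was not used. Code was tested on simulated data. For RANKL and for the genotypes with RANKL, all 10 genes, Jmjd6, Aire and Foxn1 were named. For the difference of the responses and for the unstimulated libraries all 10 were counted and only some were named. Of each other list at most 4 genes per comparison were named, those past the threshold with the largest change. For each of the 10, the 2 entries with the highest Pearson's r over 6 libraries were named. Other genes (Psmb5, Psmb8, Psmb9, Psmb10, Dll1, Jag2, Notch1, Krt5, H2-Aa, Krt8, Krt18, Epcam, Ctss, Ctsb, Ctsd, Ctsh, Ctsz, Jag1, Ccr9, Cxcr4, Kit, Rag2, Cd3e, Thy1, Ptprc, Lck, Lyz2, Cd68, Adgre1, Gm14207 and the transcription factors of the closing section) were picked for their roles or markers after values had been seen. Loci are those of the table, on mm10, counted from 1. GC content and length came from the longest coding transcript in GENCODE (92.9% of entries had one).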

Additional observations from a re-analysis of the deposited data

Results flagged for a closer look

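*Tbata* was the 1 gene of the 10 whose RANKL libraries moved in opposite directions in the genotypes. Both WT RANKL libraries lay below unstimulated WT, with log2 values of -0.39 and -0.02 relative to it, and both Jmjd6-/- ones above unstimulated Jmjd6-/- stroma, with 0.13 and 0.11. The difference of the responses was 0.33 ± 0.34 (SE) on the log2 scale, which limma did not call (adjusted p = 1.00). Groups of 1 or 2 libraries allowed no check for single outlying libraries.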

How the results depend on the processing

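Over the alternatives run, the median log2 change of the 10 genes was -0.47 to -0.33 for RANKL (reported -0.45), -0.11 to 0.15 between the genotypes (reported 0.0016) and 0.22 to 0.36 for the difference of the responses (reported 0.32). Of 15 alternatives, the RANKL change of 9 of the 10 genes kept its direction in all 15, and *Tbata* in 14, with values from -0.10 (without WT RANKL replicate 2) to 0.059 (without replicate 1) when a library was left out. *Cxcl12* passed the threshold in 12, *Ly75* in 10 and *Prss16* in 9. The 3 falls became 0 without the filter on low values and 5 with scaling to epithelial genes (*Epcam*, *Cdh1*, *Krt8* and *Krt18*), where *Psmb11*, *Ccl25* and *Ctsl* joined and *Ly75* did not pass, and 5 with each library corrected for GC content and length, an alternative chosen after seeing the data. Leaving out 1 library gave 0 to 5. The causes were not tested.

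The replicate numbers did not pair the samples (correlation of same-numbered deviations -0.08). With the replicate block, the genes higher in Jmjd6-/- stroma under RANKL went from 0 to 2, *Ly75* and *Kitl*; over all entries it raised the lower calls from 290 to 1081 and the higher calls from 82 to 396. Taking out the GC and length trend also gave 2, and leaving out 1 library 0 to 2. Differences near 0 changed sign. *Tbata* went to -0.00088 with equal totals, -0.017 by the median ratio and -0.10 with epithelial scaling, and from -0.17 to 0.19 with a library left out. *Prss16* went to 0.087 with the GC and length trend out and from -0.12 to 0.10 with a library left out, *Psmb11* from -0.21 to 0.094 and *Cxcl12* from -0.061 to 0.012. For the difference of the RANKL responses, *Il7* went to -0.0027 with epithelial scaling, -0.038 with the GC and length trend out and from -0.076 to 0.27 with a library left out. Epithelial scaling moved the median genotype difference of all tested entries from 0.01 to -0.10.

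Over all entries, the background counts moved by over 1.5 times in places. RANKL falls were 654 in the reported fit and 153 to 1478 over the alternatives, and rises 1675 and 788 to 2165. Lower and higher genotype calls went from 290 and 82 to 1737 and 2254 without WT RANKL replicate 1, and to 1 and 1 without the filter. Falls made up 28.1% of RANKL calls, and 40.3% with the GC and length trend out; lower calls made up 78.0% of genotype calls, and 64.1%. The 3-fold range was met by 3212 entries, 855 with 1 added and 6614 with 0.01 added, and by none of the 10 genes in any alternative. With 1 unstimulated library per genotype, and with no residual spread there, a lone library is assumed to vary like the others.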

Other observations

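Transcription factors of thymus formation were also measured. *Pax1*, which acts in the third pharyngeal pouch, was at 621 and 706 FPKM without RANKL and 446 to 611 FPKM with it (log2 -0.27 ± 0.14 SE, adjusted p = 0.246). *Pax9*, *Eya1* and *Hoxa3*, which act beside it, had RANKL changes of -0.18, -0.26 and -0.17 on the log2 scale, with adjusted p of 0.19 to 0.36. Between the genotypes with RANKL these 4 factors differed by 0.11 to 0.27, with adjusted p of 0.43 to 0.76. *Ackr4*, a scavenger of Ccl25 on cTECs, was at 3.87 to 15.1 FPKM, and its WT RANKL libraries, at 15.1 and 4.44 FPKM, lay further apart than any other pair of replicates among the 15 other epithelial genes.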
